A study of Mus musculus with 27 samples.

Results

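The comparison described here asks which RNAs differ from sensitized lung in the same direction after 2 unlike treatments. They are an oligonucleotide directed against miR-155, a microRNA, and the glucocorticoid dexamethasone. The 12 lungs of the AM155 group (n = 6) and the Dex_CDGHDM group (n = 6) were taken as one treated group and set against the 10 lungs of the CDG_HDM group. Together these are 22 of the 27 libraries of the series. The other 5 are Saline lungs, which shared the estimate of spread and are quoted as levels only. Each gene was also read in either treatment alone.

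All mice were BALB/c AnNHsd, 87 days old, and RNA came from the left lung lobe. AM155 mice received the oligonucleotide, antisense to miR-155, in TheraSilence lipid nanoparticles, given intravenously 3 times at 2 mg/kg on days 11, 18 and 25. Dex_CDGHDM mice received dexamethasone intraperitoneally 3 times at 3 mg/kg on the same days. CDG_HDM mice were sensitized with house dust mite extract and cyclic di-GMP, a bacterial second messenger that served as adjuvant, over 35 days. Saline mice were not sensitized. Dex_CDGHDM mice were sensitized in the same way, but the labels do not say in words that AM155 mice were. The groups hold no vehicle, empty nanoparticle or control oligonucleotide, so drug, carrier and injection route cannot be told apart. Nothing in the labels says more about litters or cages, so p-values measure the spread between these libraries.

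miR-155 is induced in activated lymphocytes and myeloid cells, where it lowers the level of regulators of cytokine signalling. Dexamethasone activates the glucocorticoid receptor, which raises anti-inflammatory genes, lowers many cytokine genes and is known for mobilizing neutrophils into blood and depleting lymphocytes. Neutrophils make their granule proteins while they mature in bone marrow and carry little granule mRNA once released.

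The mature miRNA that the oligonucleotide targets is shown because it defines the AM155 arm. It is given in the RefSeq form (GRCm38.p6, chr16:84714143-84714165, plus strand), with its seed, bases 2 to 8, in capitals. Promoters of the only genes that passed the test follow, each running from 250 bases before the RefSeq start to 50 after it, in the direction of transcription. Ngp lies at chr9:110419558-110419857 on the plus strand and Camp at chr9:109849407-109849706 on the minus strand (GRCm38.p6). Capitals mark TTGCNNAA on either strand, a form of the site bound by the C/EBP factors of granulocyte development.
mmu-miR-155-5p: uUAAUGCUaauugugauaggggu
Ngp: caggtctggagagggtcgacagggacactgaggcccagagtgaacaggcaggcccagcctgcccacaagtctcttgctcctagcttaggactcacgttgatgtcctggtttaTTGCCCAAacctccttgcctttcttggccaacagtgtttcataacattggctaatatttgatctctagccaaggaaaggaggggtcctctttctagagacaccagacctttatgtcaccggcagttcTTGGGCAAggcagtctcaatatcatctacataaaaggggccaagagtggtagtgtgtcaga
Camp: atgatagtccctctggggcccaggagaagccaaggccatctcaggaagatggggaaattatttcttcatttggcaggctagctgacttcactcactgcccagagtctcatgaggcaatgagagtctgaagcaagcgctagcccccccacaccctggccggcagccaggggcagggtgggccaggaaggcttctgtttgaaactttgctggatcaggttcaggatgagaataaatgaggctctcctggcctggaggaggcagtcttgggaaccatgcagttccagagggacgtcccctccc
The Ngp window holds 2 matches, starting 138 and 11 bases before the start, and the Camp window holds none. Of 32851 mouse promoters of the same length, 10.8% hold at least 1 match. The matches are letters only, and binding was not measured.

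Values are TPM, a share of transcripts scaled for length, and changes are differences of log2(TPM + 1), which understate the change of low genes. In limma with Benjamini-Hochberg adjustment over the 17437 genes tested, 2 genes were higher in treated lung at an adjusted p under 0.05, which is 0.0115% of the genes, and 0 were lower. Both called genes, Ngp and Camp, had the same sign in either treatment. At an unadjusted p under 0.05, 158 genes were higher, 0.906% of those tested, and 639 were lower, 3.66%. Of these 797 genes, 787 had the same sign in either treatment, a share that the choice by the mean of both arms favours. Over all genes tested, 11.3% were higher in both arms and 49.0% lower in both, which is the background for the counts of list members below. For 0 genes did the 12 treated libraries all lie above or all below the 10 CDG_HDM libraries.

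Ngp encodes neutrophilic granule protein, a cathelicidin-related protein of secondary granules (GENCODE M21, GRCm38, chr9:110419747-110423012, plus strand, a start that differs from the RefSeq start used for the promoter). It ranged from 4.78 to 19.7 TPM in AM155 lungs (median 13.4), from 1.91 to 4.04 TPM in Dex_CDGHDM lungs (median 2.78), and from 1.1 to 2.97 TPM in CDG_HDM lungs (median 1.4). The 5 Saline lungs held 4.19, 1.36, 2.08, 3.01 and 1.7 TPM. All 12 treated lungs were above the CDG_HDM median and 8 were above the highest CDG_HDM lung. The 6 AM155 lungs are all among those 8, while the Dex_CDGHDM and CDG_HDM ranges overlap.

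The pooled change of Ngp was 1.47 ± 0.167 (log2, SE, 12 treated against 10 CDG_HDM lungs, limma adjusted p = 1.44e-05). In AM155 alone it was 2.36 ± 0.202 (adjusted p = 2e-08). In Dex_CDGHDM alone it was 0.59 ± 0.202 (unadjusted limma p = 0.00643, adjusted p = 0.739), which does not pass over all genes. The single arms share the 10 CDG_HDM libraries. The arms themselves differed, with Dex_CDGHDM below AM155 by -1.76 (adjusted p = 0.000179). The pooled value is thus the mean of 2 unequal arms.

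Camp encodes the precursor of the mouse cathelicidin antimicrobial peptide, stored in the same granules (chr9:109847379-109849617, minus strand, a start that also differs from RefSeq). It ranged from 2.58 to 9.86 TPM in AM155 lungs (median 5.11), from 0.94 to 2.27 TPM in Dex_CDGHDM lungs (median 1.71), and from 0.493 to 2.05 TPM in CDG_HDM lungs (median 0.861). The Saline lungs lay between 0.635 and 1.67 TPM. All 12 treated lungs exceeded the CDG_HDM median, and 8 exceeded the highest CDG_HDM lung, which held 2.05 TPM. Its change was 1.08 ± 0.142 (adjusted p = 0.000148), with 1.71 ± 0.171 in AM155 alone (adjusted p = 3.95e-07) and 0.45 ± 0.171 in Dex_CDGHDM alone (unadjusted limma p = 0.0133, adjusted p = 0.916). Dex_CDGHDM lay below AM155 by -1.26 (adjusted p = 0.00154). Ngp and Camp kept an adjusted p under 0.05 when any 1 of the 22 libraries was left out.

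The calls depend on how the spread is taken. With the 12 treated libraries as 1 group, so that the gap between the arms counts as spread, 0 genes were higher and 0 lower, and Ngp had an adjusted p of 0.0886 and Camp of 0.113. In that fit 150 genes were higher and 614 lower at an unadjusted p under 0.05. Ngp and Camp are also low, and a filter of at least 5 TPM in at least 10 libraries removes both.

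**Figure D1:**
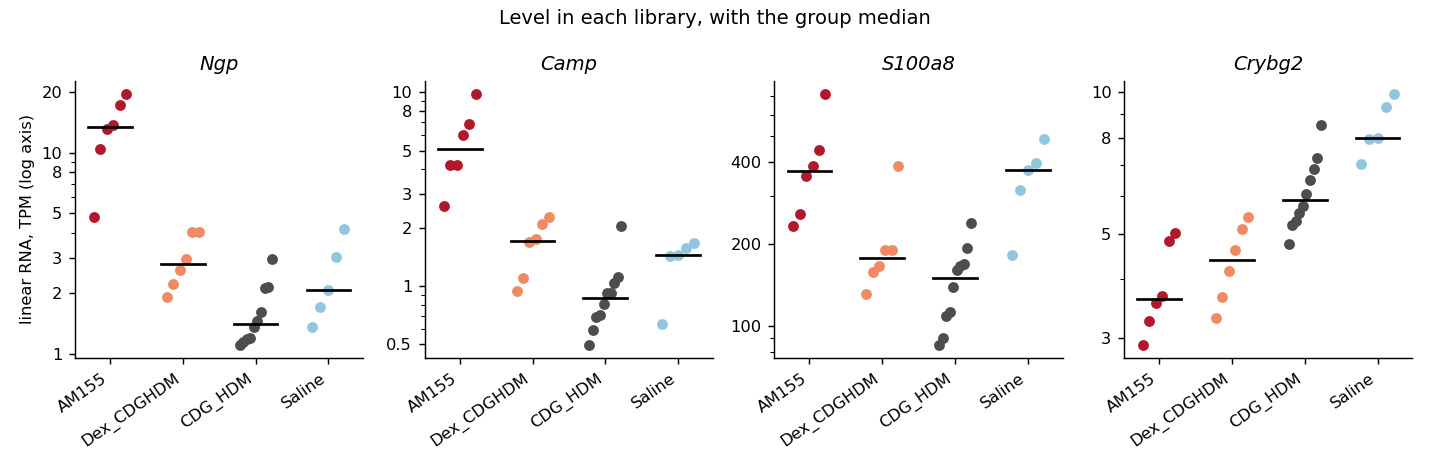
Linear RNA in TPM on a log axis for Ngp, Camp, S100a8 and Crybg2 in each library, 1 point per lung, with a bar at the group median. For Ngp and Camp all 6 AM155 lungs lie above the CDG_HDM lungs, the Dex_CDGHDM lungs overlap them, and Crybg2 is the gene with the smallest p on the lower side.

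S100a8 and S100a9, the subunits of calprotectin and among the most abundant neutrophil mRNAs, were the next genes on the higher side and did not pass. S100a8 held 233.2 to 716.6 TPM in AM155 lungs (median 372.0), 130.6 to 388.2 TPM in Dex_CDGHDM lungs (median 178.5) and 84.9 to 238.4 TPM in CDG_HDM lungs (median 150.3). Its Saline lungs held 183.1 to 487.2 TPM, and 5 of 6 AM155 lungs were above the highest CDG_HDM lung. The pooled change was 0.93 ± 0.201 (adjusted p = 0.147), with 1.41 in AM155 alone (adjusted p = 0.00738) and 0.45 in Dex_CDGHDM alone (adjusted p = 1). S100a9 had 0.94 ± 0.204 (adjusted p = 0.147), with 1.37 in AM155 and 0.52 in Dex_CDGHDM.

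The neutrophil list held 17 tested genes of 18. Of these, 12 were higher and 0 lower at an unadjusted p under 0.05, 2 passed the adjusted test, against 0.906% higher among all genes, and the median change was 0.35, beside -0.04 over all genes tested. All but 2 of the 17 were higher in both arms, with medians of 0.37 in AM155 and 0.22 in Dex_CDGHDM. Mmp8, the collagenase of neutrophil granules, named after its values had been seen, held medians of 3.01 TPM in AM155, 2.59 TPM in Dex_CDGHDM and 1.91 TPM in CDG_HDM, a difference of 0.43 ± 0.117 (adjusted p = 0.521). The list's mean of log2(TPM + 1) per library ran from 3.85 to 4.62 in AM155, from 3.55 to 4.13 in Dex_CDGHDM and from 3.27 to 3.74 in CDG_HDM, with Saline between 3.47 and 4.09. The lowest AM155 library thus stands above the highest CDG_HDM library, and 5 of 6 Dex_CDGHDM libraries stand above the CDG_HDM median. In bulk lung, more cells of a type and more RNA per cell cannot be told apart.

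A pair of further neutrophil lists was drawn up after these values had been seen, and they overlap the first. Granule and precursor genes counted 8 higher and 1 lower of 16 (median 0.28), and genes of mature neutrophils 8 higher and 0 lower of 14 (median 0.29), all at an unadjusted p under 0.05. Of granule genes also picked after their values had been seen, lactoferrin, Ltf, was 0.98 in AM155 and -0.10 in Dex_CDGHDM. Myeloperoxidase, Mpo, was 0.33 and 0.07 in those arms, and none of these values had an adjusted p under 0.05. The Ltf value in AM155 rested on AM155 2 (175.4 TPM) and AM155 3 (145.0 TPM). The other AM155 lungs held 31.5 to 48.1 TPM, within the CDG_HDM range of 21.1 to 49.1 TPM.

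Red cell genes lay on the same side. Of 10 listed erythroid genes all 10 were tested, 9 were higher at an unadjusted p under 0.05 and 0 passed the adjusted test. Their median change was 0.43, with 0.63 in AM155 and 0.20 in Dex_CDGHDM. Slc4a1, the band 3 anion exchanger of the red cell membrane, held a median of 7.07 TPM in AM155, 5.24 TPM in Dex_CDGHDM, 4.43 TPM in CDG_HDM and 8.7 TPM in Saline. Its pooled difference was 0.44 ± 0.113 (adjusted p = 0.408), with 0.65 in AM155 alone (adjusted p = 0.044) and 0.23 in Dex_CDGHDM alone. Trim10, which promotes erythroid differentiation, had 0.68 ± 0.165 (adjusted p = 0.284). In AM155 alone Trim10 had 1.11 (adjusted p = 0.0104) and in Dex_CDGHDM alone 0.25. Neither gene passed in Dex_CDGHDM alone. Alas2, the first enzyme of erythroid haem synthesis, had 0.56 ± 0.185 (adjusted p = 0.938).

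The summed level of the 10 erythroid genes ran from 11589.3 to 29923.3 TPM in AM155, from 8072.6 to 13976.7 TPM in Dex_CDGHDM, from 3887.3 to 18175.8 TPM in CDG_HDM and from 27123.7 to 41305.7 TPM in Saline. All 6 AM155 libraries but only 3 of 6 Dex_CDGHDM libraries exceeded the CDG_HDM median of the list's mean log2 level. The part of blood content in the neutrophil values was not tested. The erythroid count was 5 without AM155 11 and 4 without CDG_HDM 12, CDG_HDM 14 or CDG_HDM 4, each left out alone. Platelet genes had 2 of 7 higher, 0 lower and a median of 0.18. Itga2b, the platelet integrin alpha subunit, was 0.24 ± 0.116 and Tubb1, the platelet tubulin, 0.36 ± 0.177, both with an adjusted p of 0.945. The platelet count was 5 under each of the 3 other scalings described below and 0 to 4 with 1 library left out, with 4 without CDG_HDM 7 or Dex_CDGHDM 3 and 0 without AM155 3, AM155 11, CDG_HDM 4, CDG_HDM 12, Dex_CDGHDM 2 or Dex_CDGHDM 6.

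Of 21 type I interferon genes, 5 were higher and 0 lower at an unadjusted p under 0.05, with a median of 0.09, which splits into 0.19 in AM155 and -0.04 in Dex_CDGHDM. Rsad2, the antiviral enzyme viperin, held 4.28 to 8.99 TPM in AM155 lungs (median 7.47), 2.32 to 4.39 TPM in Dex_CDGHDM lungs (median 3.76) and 2.32 to 4.72 TPM in CDG_HDM lungs (median 3.23). Only AM155 lungs exceed the CDG_HDM range, in 5 of 6. Its pooled difference was 0.49 ± 0.114 (adjusted p = 0.228), with 0.88 in AM155 alone (adjusted p = 0.00231), 0.11 in Dex_CDGHDM alone and a difference of -0.76 between them (adjusted p = 0.0366), which no longer passed for 8 of the 22 libraries when 1 was left out (adjusted p up to 0.129). Ifi27l2a, an interferon-induced gene outside the list and named after its values had been seen, differed more between the arms, by -1.45 (adjusted p = 0.000266), with 1.14 in AM155 alone (adjusted p = 0.00206) and -0.31 in Dex_CDGHDM alone (adjusted p = 1). The oligoadenylate synthetase genes Oas2 and Oas3 had 0.32 and 0.33, with 0.63 and 0.59 in AM155 alone and 0.02 and 0.06 in Dex_CDGHDM alone, so the shared sign rests on values near 0 in 1 arm. Of these, Oas2 passed in AM155 alone (adjusted p = 0.0224). The count of interferon genes was 7 to 9 under the 3 other scalings.

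The higher genes outside these groups included Mrvi1, a partner of cGMP kinase in smooth muscle. It held 6.81 to 11.1 TPM in AM155 lungs, 9.2 to 11.1 TPM in Dex_CDGHDM lungs and 5.8 to 8.91 TPM in CDG_HDM lungs. All 6 Dex_CDGHDM lungs and 4 AM155 lungs were above the highest CDG_HDM lung. Its change was 0.35 ± 0.079 (adjusted p = 0.19), with 0.25 in AM155 and 0.46 in Dex_CDGHDM, which is the reverse of the order seen for Ngp and Camp, and the difference between arms did not pass (0.21, adjusted p = 0.694). Ifitm6, a myeloid member of the interferon-induced transmembrane family, had 0.80 ± 0.183 and Slfn4, a Schlafen gene of myeloid cells, 0.70 ± 0.166. Arhgef37, a guanine nucleotide exchange factor, had 0.44 ± 0.113. None of these 4 passed in the pooled comparison. In AM155 alone Ifitm6 had 1.21 (adjusted p = 0.011), Slfn4 0.99 (adjusted p = 0.0298) and Arhgef37 0.70 (adjusted p = 0.0224), while in Dex_CDGHDM alone they had 0.38, 0.41 and 0.18, none passing.

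**Figure D2:**
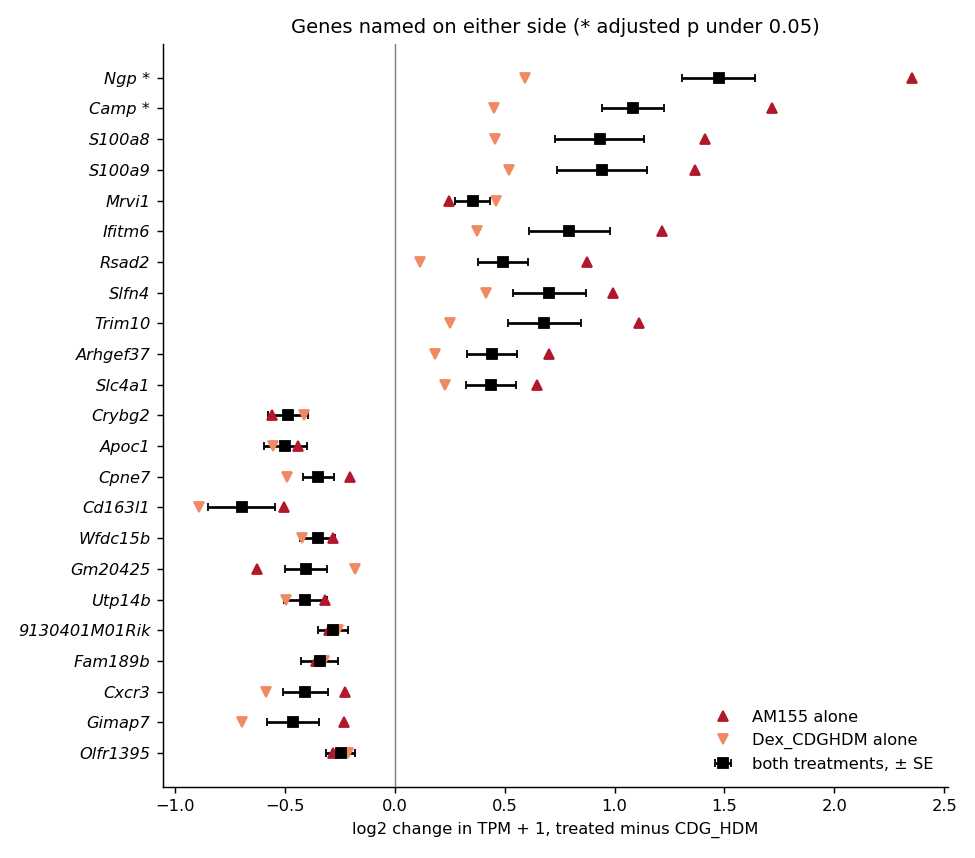
Change in log2(TPM + 1) of 11 genes on the higher and 12 on the lower side, chosen by the smallest p, treated minus CDG_HDM, as a square with its SE, with triangles for AM155 alone and Dex_CDGHDM alone. Ngp and Camp carry an asterisk for an adjusted p under 0.05. On the higher side AM155 lies beyond Dex_CDGHDM for every gene shown but Mrvi1, whereas on the lower side AM155 is the farther arm for some genes and Dex_CDGHDM for others.

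On the lower side no gene passed, and the nearest was Crybg2, which belongs to the beta-gamma crystallin domain family. Crybg2 held 2.89 to 5.02 TPM in AM155 lungs (median 3.62), 3.31 to 5.43 TPM in Dex_CDGHDM lungs (median 4.38) and 4.75 to 8.52 TPM in CDG_HDM lungs (median 5.9), with 7.04 to 9.93 TPM in Saline. All 12 treated lungs were below the CDG_HDM median and 8 below its lowest lung. The change was -0.49 ± 0.0911 (adjusted p = 0.0516). In AM155 alone it was -0.56 (adjusted p = 0.0224), which passed, and in Dex_CDGHDM alone -0.41 (adjusted p = 0.385). The pooled change crossed the threshold under each of 3 other scalings, with adjusted p from 0.00422 to 0.0332.

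Apoc1, an apolipoprotein made by macrophages among other cells, held medians of 52.9 TPM in AM155 and 53.7 TPM in Dex_CDGHDM, against 74.5 TPM in CDG_HDM and 56.9 TPM in Saline. Of the 12 treated lungs, 10 were below the lowest CDG_HDM lung, which held 59.6 TPM. The change was -0.50 ± 0.0974 (adjusted p = 0.0735), with -0.44 and -0.56 in the AM155 and Dex_CDGHDM arms, and the difference between arms did not pass (-0.12, adjusted p = 0.874). Values of the arms also lay close together for 9130401M01Rik, with -0.30 in AM155 and -0.26 in Dex_CDGHDM and for Fam189b, with -0.36 and -0.32.

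Cpne7, a copine, which binds phospholipid with calcium, was near 1 TPM, with medians of 1.47 TPM in AM155, 0.911 TPM in Dex_CDGHDM, 1.66 TPM in CDG_HDM and 0.445 TPM in Saline. Its change was -0.35 ± 0.0704 (adjusted p = 0.0973), and in Dex_CDGHDM alone it was -0.49 (adjusted p = 0.0452), the 1 gene called in that contrast. Cd163l1, a scavenger receptor cysteine-rich protein, had -0.70 ± 0.151 (adjusted p = 0.147). Cxcr3, the chemokine receptor of type 1 T cells, had -0.41 ± 0.103 and Gimap7, a lymphocyte GTPase, -0.46 ± 0.119, both with an adjusted p over 0.4. Cxcr3 held 9.11 to 17.7 TPM in AM155, 6.84 to 13.1 TPM in Dex_CDGHDM and 12.1 to 19.3 TPM in CDG_HDM lungs. For Gimap7 the ranges were 19.1 to 30.5 TPM, 12.2 to 21.6 TPM and 19.0 to 44.4 TPM. Both genes thus lay lower in Dex_CDGHDM than in AM155 lungs, with overlap. Wfdc15b, Gm20425, Utp14b and Olfr1395 had -0.35, -0.40, -0.41 and -0.25. Gm20425 was called in AM155 alone, at -0.625 (adjusted p = 0.0112), beside -0.18 in Dex_CDGHDM alone, which did not pass. Utp14b is an intronless copy of Utp14a and Olfr1395 is 1 of a large receptor family, so reads could have been split with near-identical sequence.

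T and B cell genes lay mostly below CDG_HDM, and none passed. The 13 tested genes of natural killer and cytotoxic cells had a median of 0.02, with 0.35 in AM155 and -0.28 in Dex_CDGHDM. Of these 13, 1 was lower and 0 higher at an unadjusted p under 0.05. Of 22 T cell markers, 12 were lower and 0 higher at an unadjusted p under 0.05, with a median of -0.24, and 18 were lower in both arms, beside 3.66% lower at that p and 49.0% lower in both arms over all genes. The medians of the arms were -0.10 in AM155 and -0.38 in Dex_CDGHDM, beside -0.08 and -0.01 over all genes. The AM155 median thus lay near that of all genes in the same arm. Cd2, an adhesion receptor of T cells, held medians of 38.2 TPM in AM155, 29.4 TPM in Dex_CDGHDM, 42.1 TPM in CDG_HDM and 27.1 TPM in Saline, a difference of -0.31 ± 0.0847 (adjusted p = 0.521). Cd3g, a chain of the T cell receptor complex, had -0.08 in AM155 and -0.68 in Dex_CDGHDM, and Cd5 and Lck, a receptor and a kinase of T cell signalling, had -0.11 and -0.15 in AM155 beside -0.61 and -0.53 in Dex_CDGHDM. The count was 4 with a common sum per library, 7 with median of ratios or quantile normalization, and 6 without CDG_HDM 4, the CDG_HDM library with the highest T cell level.

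B cell markers had 5 of 15 lower, 0 higher and a median of -0.28, with all 15 lower in both arms, against 49.0% of all genes, and medians of -0.30 in AM155 and -0.28 in Dex_CDGHDM. Ms4a1, which encodes CD20, had -0.50 ± 0.22 (adjusted p = 0.945), with medians of 10.6 TPM in AM155, 9.54 TPM in Dex_CDGHDM and 13.1 TPM in CDG_HDM. Cd79a and Cd79b, the signalling chains of the B cell receptor, had -0.41 and -0.40, and Fcrla, an Fc receptor-like protein of B cells, -0.42. Under the 3 other scalings 0 or 1 of the 15 was lower at that threshold. Without CDG_HDM 4, CDG_HDM 8, AM155 5 or AM155 6, each left out alone, the count was 0, without Dex_CDGHDM 4 it was 1, without Dex_CDGHDM 6 it was 2 and without CDG_HDM 14 it was 3. It was 8 without AM155 2, CDG_HDM 10 or Dex_CDGHDM 1.

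The plasma cell and secretory list, which joins plasma cell genes with chaperones of the endoplasmic reticulum, had 8 of 23 lower, 0 higher and a median of -0.18, with 20 lower in both arms. Over all genes 3.66% were lower at that p and 49.0% lower in both arms. Jchain, the joining chain of polymeric antibodies, held 1652.6 to 3235.7 TPM in AM155 lungs (median 2235.9), 1229.8 to 2623.1 TPM in Dex_CDGHDM lungs (median 2108.7) and 1686.4 to 3453.5 TPM in CDG_HDM lungs (median 2855.3), while Saline lungs held 10.0 to 24.0 TPM. All 12 treated lungs stayed above every Saline lung. Its change of -0.30 ± 0.154 did not pass (adjusted p = 0.945). Sdf2l1, Manf, Creld2 and Hspa5, proteins of the endoplasmic reticulum that are induced by unfolded protein, had -0.33, -0.29, -0.30 and -0.29. The count was 2 to 6 under the 3 other scalings. Left out alone, AM155 2 gave 13, CDG_HDM 5 gave 5, AM155 5 and AM155 6 gave 4 each, and Dex_CDGHDM 4 gave 2.

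Genes that organize lymphoid follicles had 4 of 10 lower, 0 higher and a median of -0.19. Cxcl13, the chemokine that draws B cells into follicles, held medians of 38.0 TPM in AM155, 30.5 TPM in Dex_CDGHDM, 39.5 TPM in CDG_HDM and 9.09 TPM in Saline, a change of -0.35 ± 0.138 (adjusted p = 0.945). Ltb, lymphotoxin beta, had -0.33, Tnfrsf13c, the receptor for the survival factor BAFF, -0.23, and Tnfsf13b, BAFF itself, -0.17. With a common sum or quantile normalization 0 of the 10 were lower at that threshold, and with median of ratios 1. The count was 2 without AM155 6, CDG_HDM 4, CDG_HDM 8, CDG_HDM 9, Dex_CDGHDM 3, Dex_CDGHDM 4 or Dex_CDGHDM 6, each left out alone.

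Type 1 and interferon gamma genes had 3 of 24 lower, 0 higher and a median of -0.13. The count was 7 without Dex_CDGHDM 1, 5 without AM155 2 or CDG_HDM 12, and 1 with array weights. Ifng had -0.03 in AM155 and -0.60 in Dex_CDGHDM (adjusted p = 0.939 and 0.196), Stat4, which carries the interleukin-12 signal, -0.12 and -0.34, and Tbx21, the type 1 lineage factor, 0.03 and -0.43. Type 2 genes had 0 of 18 on either side and a median of -0.01. Il13, the cytokine that drives mucus production, was -0.10 ± 0.0782 and Il5, which sustains eosinophils, -0.01 ± 0.0805. Type 17 genes had 1 of 12 lower, with Il17a, its defining cytokine, at 0.11 ± 0.137. Ccl8, a chemokine, held medians of 330.2 TPM in AM155, 244.4 TPM in Dex_CDGHDM, 223.0 TPM in CDG_HDM and 4.46 TPM in Saline, and its change of -0.04 ± 0.231 reverses with the scaling.

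Eosinophil genes had 2 of 7 lower, 0 higher and a median of -0.07, with 1 lower without AM155 2, CDG_HDM 3, CDG_HDM 7, CDG_HDM 9, CDG_HDM 12, Dex_CDGHDM 1 or Dex_CDGHDM 3. Siglecf, a receptor of eosinophils and of alveolar macrophages, had -0.25 ± 0.0854 and lay under the CDG_HDM median in 12 of 12 treated lungs. Ear1, an eosinophil-associated ribonuclease with close copies in the genome, had -0.36 ± 0.156, and both had an adjusted p of 0.945.

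The heat shock list had the median farthest below 0 of all 43 lists, -0.42, with -0.40 in AM155 and -0.43 in Dex_CDGHDM. All 12 tested members were lower in both arms, and 6 of 12 had an unadjusted p under 0.05, with 0 passing, beside 49.0% lower in both arms and 3.66% lower at that p over all genes. The member farthest below 0, Hspa1b, an inducible chaperone named after its values had been seen, had -1.07 ± 0.548 (adjusted p = 0.945), and its near-identical copy Hspa1a can share its reads. Hspe1, the mitochondrial co-chaperonin, held 64.8 to 106.7 TPM in AM155 lungs (median 85.3), 65.1 to 100.6 TPM in Dex_CDGHDM lungs (median 89.6) and 73.1 to 131.9 TPM in CDG_HDM lungs (median 107.7). All 12 treated lungs were below the CDG_HDM median, but only 2 were below its lowest lung. Its change was -0.31 ± 0.0962 (adjusted p = 0.734). The cytosolic chaperones Hsp90ab1, Hsp90aa1 and Hsph1 had -0.42, -0.42 and -0.61.

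The summed heat shock level ran from 1284.3 to 2718.1 TPM in AM155, from 1247.4 to 2436.0 TPM in Dex_CDGHDM, from 1083.6 to 3434.1 TPM in CDG_HDM and from 1490.9 to 3171.5 TPM in Saline. The CDG_HDM libraries therefore span the treated range. The count was 2, 6 and 5 with a common sum, median of ratios and quantile normalization, and 1 without the 3 libraries of high circular Sftpc described below. It was 2 without CDG_HDM 5, CDG_HDM 9 or Dex_CDGHDM 1 and 3 without AM155 5, AM155 6, CDG_HDM 7, CDG_HDM 8 or Dex_CDGHDM 4. It was 10 without CDG_HDM 12, CDG_HDM 13 or CDG_HDM 14 and 11 without AM155 11.

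**Figure D3:**
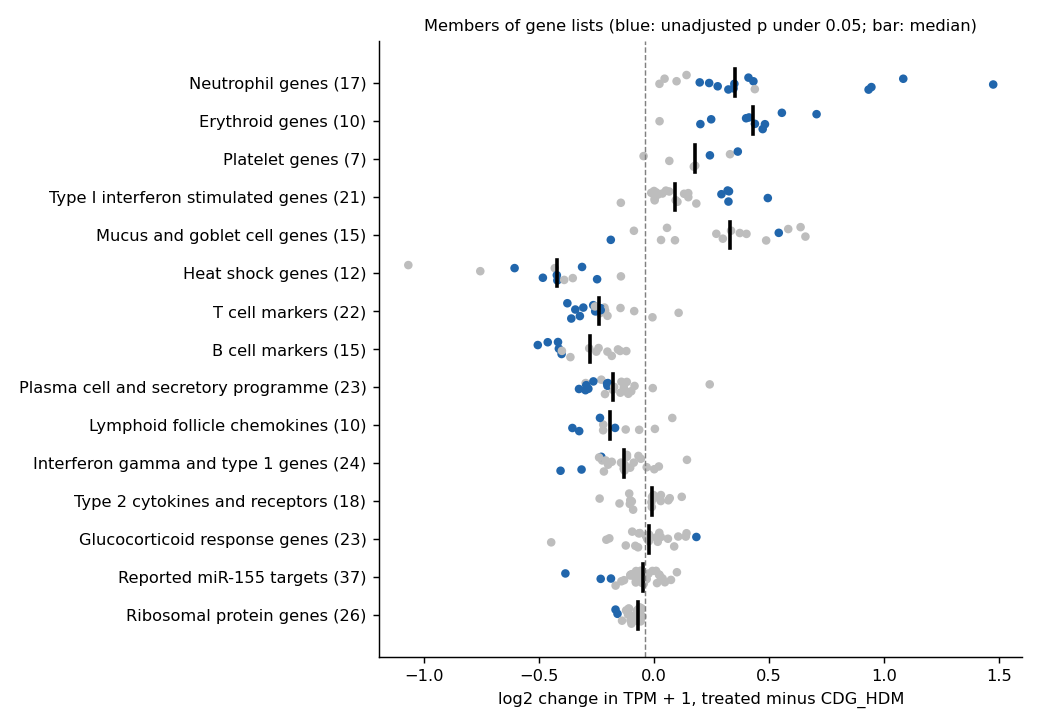
Change in log2(TPM + 1), treated minus CDG_HDM, of each tested member of 15 gene lists, with the number of members in brackets, a bar at the list median and a dashed line at the median of all genes tested. Members with an unadjusted p under 0.05 are blue. Neutrophil, erythroid and most mucus members lie to the right, heat shock, T cell and B cell members to the left.

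Lists for the pathways that the drugs act on had medians near that of all genes. Of 23 glucocorticoid response genes, 1 was higher and 0 lower at an unadjusted p under 0.05, with a median of -0.02 in all and -0.00 in Dex_CDGHDM alone. Fkbp5, a co-chaperone of the receptor and a common readout of it, held medians of 12.9 TPM in AM155, 11.4 TPM in Dex_CDGHDM, 12.9 TPM in CDG_HDM and 6.81 TPM in Saline. In Dex_CDGHDM alone Fkbp5 was -0.06 ± 0.154, Tsc22d3, which encodes GILZ, -0.47 ± 0.236, Per1, a clock gene with receptor sites, -0.09 ± 0.276 and Zbtb16 -0.67 ± 0.451, and none passed. Mt2, a metallothionein, was the 1 gene higher at that threshold, a count that was 0 without AM155 11, CDG_HDM 12, CDG_HDM 13 or Dex_CDGHDM 2, with 0.07 in AM155 and 0.30 in Dex_CDGHDM. In the pooled comparison Klf15, another induced factor, was -0.21, and Nr3c1, the receptor itself, was -0.10 ± 0.0722. The last dose was given on day 25 of the 35.

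Of 37 reported targets of miR-155, 3 were lower, 0 higher, and the median was -0.05, with -0.07 in AM155 alone. Under the 3 other scalings 1 was lower and 1 to 5 were higher, and 1 was lower without AM155 6, CDG_HDM 4, CDG_HDM 14 or Dex_CDGHDM 4. Socs1 and Inpp5d, which restrain cytokine and phosphoinositide signalling, were 0.01 ± 0.222 and -0.09 ± 0.128 in AM155 alone. Pooled over both arms, Ctla4, an inhibitory receptor, was -0.23 ± 0.102 and Ets1, a lymphocyte transcription factor, -0.19 ± 0.0874. The pooled value of Ikbke, a kinase of innate signalling, was -0.17 ± 0.11. In AM155 alone Ctla4 was 0.01, so its sign was not shared by the arms. The miRNA and its host gene were not analysed here.

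Mucus genes had a high median, though few single genes had an unadjusted p under 0.05. Of 15 tested, 1 was higher and 1 lower at an unadjusted p under 0.05, the median was 0.33, and 12 were higher in both arms. Itln1, a lectin of goblet cells, held medians of 9.32 TPM in AM155, 8.54 TPM in Dex_CDGHDM and 5.65 TPM in CDG_HDM, a change of 0.54 ± 0.163 (adjusted p = 0.698), with 7 treated lungs above the highest CDG_HDM lung. Muc5ac and Muc5b, the gel-forming mucins of airways, were 0.30 ± 0.147 and 0.40 ± 0.218, and Galnt12, an enzyme that starts mucin glycosylation, was -0.19 ± 0.0903. The summed level reached 652.0 TPM in AM155 and 328.2 TPM in Dex_CDGHDM, against at most 184.7 TPM in CDG_HDM. The lowest sum was also that of an AM155 lung, at 68.9 TPM. Median sums were 225.1 TPM in AM155, 177.3 TPM in Dex_CDGHDM and 174.4 TPM in CDG_HDM. Saline sums ran from 193.8 to 607.5 TPM (median 564.1). The count was 3 to 5 under other scalings and 10 without the 3 libraries of high circular Sftpc described below, an alternative chosen after the data were seen. Left out alone, AM155 5 gave 6, CDG_HDM 13 gave 5, AM155 6 and AM155 8 gave 4, CDG_HDM 8 and Dex_CDGHDM 5 gave 3, and Dex_CDGHDM 3, Dex_CDGHDM 4 and Dex_CDGHDM 6 gave 2.

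The lung label was matched by Sftpc, the surfactant protein of alveolar type 2 cells, at medians of 15309.8 TPM in AM155, 18320.8 TPM in Dex_CDGHDM and 19375.7 TPM in CDG_HDM, and by the club cell gene Scgb1a1, at 18382.4 TPM or more in every library. Heart muscle genes, all 14 listed, summed to 188.3 to 682.3 TPM in AM155, 319.9 to 492.2 TPM in Dex_CDGHDM, 193.2 to 539.7 TPM in CDG_HDM and 708.7 to 1889.0 TPM in Saline. AM155 2 had the highest level of any AM155 library for many lists. They included T cell, B cell, plasma cell, mucus, thymus and heart muscle genes, and also ribosomal protein, proliferation and club cell genes. It had the lowest level of its group for Ngp and Camp. Without that library 4 genes were higher and 3 lower, with Rsad2 and Trim10 added on the higher side and Apoc1, Crybg2 and Cpne7 on the lower.

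Libraries differed in how TPM was shared between kinds of RNA. The linear table summed to 542264 to 770987 TPM in treated libraries (median 744161) and to 628177 to 798457 TPM in CDG_HDM libraries (median 746482), a difference in means of -38127 (permutation p = 0.177, adjusted p = 0.355 over 4 library values, two-sided). Circular RNA summed to 41294 to 240756 TPM in treated libraries and to 32873 to 77020 TPM in CDG_HDM libraries, a difference in means of 51422 (permutation p = 0.0665, adjusted p = 0.266). The medians were 60217 TPM in treated and 49744 TPM in CDG_HDM libraries, a difference of 10473 (permutation p = 0.175, adjusted p = 0.567). Circular Sftpc alone reached 177260 TPM in AM155 5, 187944 TPM in AM155 6 and 197545 TPM in Dex_CDGHDM 4, against at most 17753 TPM in a CDG_HDM library. The number of circular gene symbols above 0 differed by 40.5 (permutation p = 0.587), and the share of TPM in neither table by -1.33 percentage points (permutation p = 0.542).

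**Figure D4:**
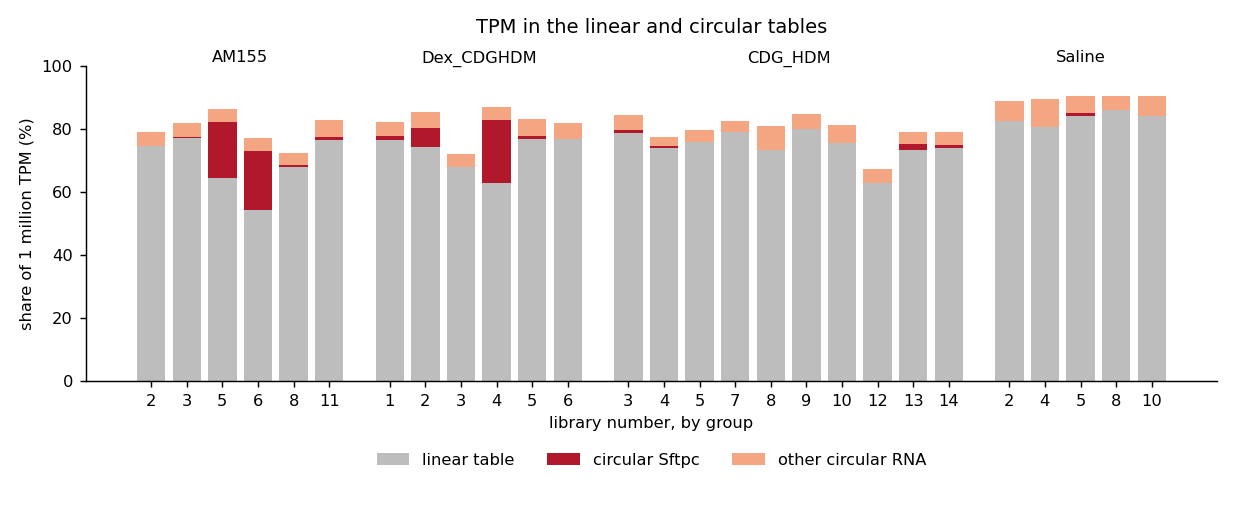
Stacked bars of the TPM held by the linear table, circular Sftpc and other circular RNA in each library, as a percentage of 1000000 TPM, in the order AM155, Dex_CDGHDM, CDG_HDM and Saline. Circular Sftpc is the large middle block in AM155 5, AM155 6 and Dex_CDGHDM 4, whose linear sums are low.

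TPM is a share of a fixed total within a library, and the split of higher and lower genes depended on the scaling. As deposited, 158 genes were higher and 639 lower at an unadjusted p under 0.05, and 2 and 0 were called. With the linear table set to a common sum, 1157 were higher and 200 lower, and 4 and 2 were called. Median of ratios gave 740 and 627, with 5 and 2 called, and quantile normalization gave 728 and 656, with 4 and 2 called. Leaving out the 3 libraries of high circular Sftpc gave 603 and 121, with 2 and 0 called. Ngp and Camp passed in each of these fits. The genes added by a scaling were Mrvi1, Rsad2 and St3gal4, a sialyltransferase named after its values had been seen, on the higher side and Crybg2 and Cpne7 on the lower, and all had the same sign in both arms. The median over all genes was -0.044 as deposited and 0.026 with a common sum. The counts on the lower side of T cell, B cell, heat shock and secretory lists moved with it.

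**Figure D5:**
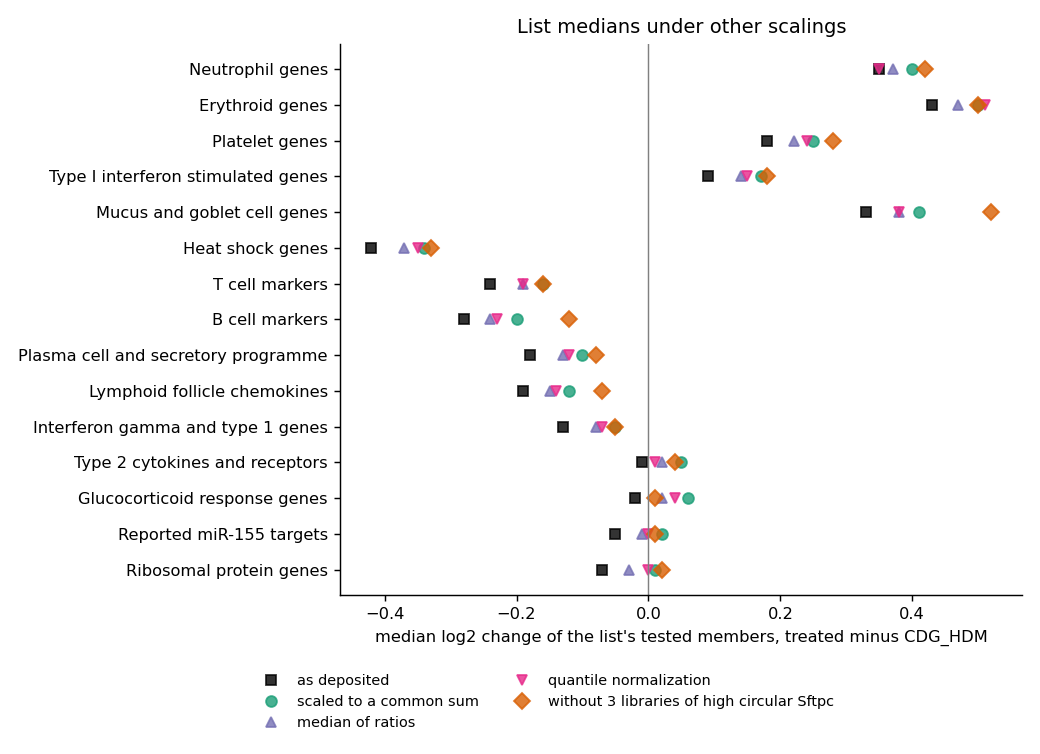
Median change in log2(TPM + 1) of 15 gene lists, treated minus CDG_HDM, as deposited, under 3 other scalings and without the 3 libraries of high circular Sftpc. Medians of neutrophil, erythroid and mucus genes stay above 0 and those of heat shock, T cell and B cell genes below 0 in all 5, while ribosomal protein, miR-155 target and glucocorticoid response genes cross it.

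The single arms called 18 genes in AM155, 0.103% of those tested, and 1 in Dex_CDGHDM, 0.00573%. The contrast between the arms, in which CDG_HDM libraries enter only through the shared estimate of spread, called 14 genes, 0.0803%. That count was 61 to 112 under the 3 other scalings and 3 without the 3 libraries of high circular Sftpc. It was 34 without AM155 11 and 9 without AM155 8, Dex_CDGHDM 2, Dex_CDGHDM 3 or Dex_CDGHDM 4. Ngp and Camp passed in it with any 1 of the 22 libraries left out. Both genes called in the pooled comparison are among the 18 of AM155 and among the 14 that differ between arms, and neither is called in Dex_CDGHDM alone.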

How the data were processed

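The authors deposited TPM for linear RNA (21742 gene symbols) and for circular RNA (4416 symbols) in 27 libraries. Per the submitters' processing notes, the build was mm10 and CASAVA 1.9 was used, while aligner, quantifier and annotation are each not given in the sources used here. TPM holds no read counts, so depth is unknown. Linear TPM was analysed as log2(TPM + 1) for the 17437 genes that reached 1 TPM in 5 or more libraries. All libraries entered 1 limma 3.58.1 model (R 4.3.3) with 4 groups and a variance trend. The model was checked on simulated data with the same change in both arms. That check does not cover unequal arms such as those of Ngp and Camp. The treated coefficient is the mean of the AM155 and Dex_CDGHDM coefficients, and tests are two-sided with Benjamini-Hochberg adjustment at 0.05. Library sums were compared by permutation with 100000 resamples. The members and gene lists were chosen with earlier results of these data known. Named genes are those called, filled to 12 a side by smallest p among genes with the same sign in both arms and a mean of at least 1 TPM in treated or CDG_HDM, plus up to 4 per list by smallest p and 15 fixed genes. Of the genes this rule names, 2 are not reported here. Symbols turned into dates were not named, and genes outside this rule are marked as picked after their values were seen. Libraries are numbered as in their titles. Other scalings, filters, pseudocounts, models and single left-out libraries were tried.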

Additional observations from a re-analysis of the deposited data

Results flagged for a closer look

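The limma contrast of Dex_CDGHDM minus AM155 called 14 genes. Of the 24 genes named by rank in the pooled comparison, 3 are among them: Ngp (-1.76), Camp (-1.26) and Rsad2 (-0.76), these 3 higher in AM155.

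Gaps in rank within AM155, Dex_CDGHDM and CDG_HDM were examined for 84 groups of values. Of these, 12 held a library far from the others, where chance gives about 1 in 20 for a single group. The groups are not independent, since the linear sum enters the share outside the tables. No excess over that rate can therefore be read from the count. Dex_CDGHDM 1 stood above its group for S100a8 (388.2 TPM), S100a9 (575.7 TPM) and Ifitm6 (7.58 TPM). Among CDG_HDM lungs, CDG_HDM 4 was high for Camp (2.05 TPM), Gm20425 (10.9 TPM) and Gimap7 (44.4 TPM), and CDG_HDM 3 was high for Ifitm6 (7.83 TPM) and Arhgef37 (2.38 TPM).

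CDG_HDM 12 had a low linear sum (628177 TPM) and a high share outside both tables (32.8%). That share was also high in Dex_CDGHDM 3 (27.9%). Dex_CDGHDM 4 held the highest circular sum of its group (240756 TPM).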

How the results depend on the processing

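The counts of genes called higher, lower and with the same sign in both arms were 2, 0 and 2. They were 4, 2 and 6 with a common sum, 5, 2 and 7 with median of ratios, 4, 2 and 6 with quantile normalization, and 0, 0 and 0 with the stricter filter. With treated libraries as 1 group of 12, both counts were 0 with 27 and with 22 libraries (smallest adjusted p 0.0886 and 0.277). One gene, Crybg2, was lower with a pseudocount of 0.1 and with robust variance. Leaving out 1 library gave 2 to 4 higher, 0 to 3 lower and 2 to 7 with the same sign. AM155 2 gave the largest of each, AM155 3 gave 2 lower and 4 with the same sign, and AM155 8, CDG_HDM 8, CDG_HDM 10, CDG_HDM 12, Dex_CDGHDM 1 and Dex_CDGHDM 6 gave 1 lower. In the replicate block by title number, all 3 counts were 0, and in that by description number they were 2, 0 and 2. Deviations from the group mean correlated over 0.1 in 1 of 10 same-numbered pairs by title, beside 50 of 146 other pairs. By description they did so in 6 of 18 same-numbered pairs, beside 45 of 138 others. So few pairs cannot exclude a pairing, and the main fit used none.

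Library values had an adjusted p over 0.05 in each setting. Over left-out libraries, the difference was -51218 to -23072 TPM for the linear sum, 38710 to 56843 TPM for the circular sum, 2.78 to 83.9 for circular symbols and -2.12 to 0.0395 points for the share outside the tables, positive only without CDG_HDM 12.

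Reversals concerned uncalled genes. Fkbp5 was 0.05, 0.02 and 0.02, Ccl8 0.04, 0.01 and 0.05, and Il5 0.07, 0.04 and 0.04 with common sum, median of ratios and quantile normalization, and Scgb1a1 was 0.00 with quantile normalization. In the replicate block by description number Fkbp5 was 0.02, Socs1 0.22 and Ccl8 0.07, and in that by title number Per1 was -0.09 and Ccl8 0.25. Array weights gave 0.12 for Socs1 and 0.15 for Ccl8, a pseudocount of 0.1 gave 0.11 for Socs1, and dropping the 3 libraries of high circular Sftpc gave 0.11 and 0.06 for those genes. AM155 alone gave Tbx21 0.03, Tsc22d3 0.08, Ctla4 0.01, Socs1 0.01 and Ccl8 0.05, and Dex_CDGHDM alone gave Ltf -0.10 and Per1 -0.09. Over left-out libraries Fkbp5 ran from -0.10 to 0.04, Socs1 from -0.14 to 0.13, Ccl8 from -0.14 to 0.09 and Il5 from -0.04 to 0.04. The cause was not tested. TPM without counts leaves the precision of genes near 1 TPM, Camp included, unknown beyond the spread between lungs.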
